A study of Mus musculus with 16 samples.

Results

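The genes of voltage-gated sodium channels, voltage-gated calcium channels and potassium channels were followed in mouse neural stem and progenitor cells with and without the histone acetyltransferase KAT7 (HBO1). Members were all genes whose symbols begin with Scn and a number followed by a or b, with Cacna, Cacnb or Cacng, or with Kcn, and which had at least 10 counts in at least 4 of the 16 libraries. Of 138 such names, 3 were left out as antisense or opposite-strand transcripts by their suffix, and 37 had too few counts. The remaining 98 of the 27179 genes in the files were 8 sodium, 22 calcium and 68 potassium channel genes. Among the 68 are Kcnrg, which encodes no pore, and Kcnq1ot1, a noncoding RNA antisense to Kcnq1. The rule used levels but no difference between groups. Just inside it lay Cacna2d4 and Kcna5, with that count in 4 libraries, and just outside it Scn7a, Kcnj6, Kcnk12, Cacng3 and Kcng2, with it in 3.

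The cells were isolated from the cortex and ganglionic eminence of E14.5 foetuses and grown as neurospheres, free-floating clusters of progenitors. Null proliferating, intact proliferating, null differentiating and intact differentiating cells gave 4 libraries each. Null cells were Kat7lox/loxNesCreT/+ and intact cells Kat7+/+NesCreT/+, so every group carried a Cre transgene under Nestin control, and no intact cells carried the floxed allele. Proliferating cells were taken after 3 passages and 3 days, and differentiating cells after 3 days on a laminin coat in cortical neuron medium. Isolates came from 4 foetuses per genotype, and which proliferating and differentiating libraries share a foetus is not stated. Polyadenylated RNA was sequenced, and levels are given as CPM, counts relative to library size after scaling between libraries.

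Voltage-gated sodium channels carry the fast inward current of the action potential, and their beta subunits modify gating and placement. Voltage-gated calcium channels turn depolarisation into calcium entry, through an alpha-1 pore that works with alpha-2/delta and beta subunits. The gamma family includes proteins that also escort AMPA-type glutamate receptors. Potassium channels set the resting potential and end or space action potentials, and in glia the inward rectifiers buffer extracellular potassium. Progenitors and glia express many of these genes as well, so that their transcripts do not mark neurons alone.

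Promoters of 4 members are shown, chosen after their values were seen. Kcnh8 and Kcnt2 were nearly or wholly without counts in null cells, while Kcnh2 and Kcne1l were higher there, though not by the most among the members. The windows run from 250 bases before to 50 after a start that the RefSeq table for GRCm38.p6 gives for the gene, and are written on the strand of the gene. The start used for Kcnh2 lies within the annotated gene, downstream of its outermost start, and that of Kcnt2 shortly downstream of its outermost start. They lie at chr17:52602459-52602758 (plus strand, Kcnh8), chr1:140245468-140245767 (plus strand, Kcnt2), chr5:24329542-24329841 (minus strand, Kcnh2) and chrX:142306149-142306448 (minus strand, Kcne1l). Capitals mark matches on either strand to any of the 5 motifs searched, which are a Sp1 box in Kcnh8, 3 Sp1 boxes in Kcnh2, a Sp1 box and an E-box CAGCTG in Kcne1l and none in Kcnt2.
Kcnh8: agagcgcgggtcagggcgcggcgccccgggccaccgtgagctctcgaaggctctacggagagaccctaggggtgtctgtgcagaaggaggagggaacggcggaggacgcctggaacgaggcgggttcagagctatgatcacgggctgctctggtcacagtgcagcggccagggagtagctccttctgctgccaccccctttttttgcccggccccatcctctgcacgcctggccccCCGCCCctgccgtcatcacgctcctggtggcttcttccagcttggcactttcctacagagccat
Kcnt2: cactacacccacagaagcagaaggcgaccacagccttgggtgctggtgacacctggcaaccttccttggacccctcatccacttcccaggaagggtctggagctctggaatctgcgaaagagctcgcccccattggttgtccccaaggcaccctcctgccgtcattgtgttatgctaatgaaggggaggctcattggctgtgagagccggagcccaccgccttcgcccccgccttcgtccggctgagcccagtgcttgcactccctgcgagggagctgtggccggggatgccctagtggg
Kcnh2: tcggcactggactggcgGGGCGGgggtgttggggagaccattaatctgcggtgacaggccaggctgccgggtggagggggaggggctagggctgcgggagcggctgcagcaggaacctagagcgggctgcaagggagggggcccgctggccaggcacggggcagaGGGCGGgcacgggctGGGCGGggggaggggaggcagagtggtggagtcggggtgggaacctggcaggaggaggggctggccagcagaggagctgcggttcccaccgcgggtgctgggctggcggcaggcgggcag
Kcne1l: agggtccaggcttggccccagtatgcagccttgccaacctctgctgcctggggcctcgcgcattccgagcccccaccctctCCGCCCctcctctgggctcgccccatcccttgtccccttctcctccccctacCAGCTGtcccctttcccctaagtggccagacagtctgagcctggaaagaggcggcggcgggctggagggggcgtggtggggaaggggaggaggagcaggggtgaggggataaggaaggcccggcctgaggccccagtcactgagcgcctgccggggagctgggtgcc

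Promoter windows were found for 69 of the 98 members, in 101 windows. Their median ratio of observed to expected CpG was 0.482, against 0.742 over the promoters of the genes tested and 0.384 over all promoters in the table. The motif TTCAGCACC, one part of the element bound by the neuronal repressor REST, was in 0 of the members' windows, in 0.422% of those of the genes tested and in 0.371% of all. The Sp1 box GGGCGG was in 45.5% of the members' windows, against 61.8% and 35.7%, and the E-box CAGCTG in 29.7%, against 15.5% and 16.3%. The E-box CAGATG was in 15.8%, against 11.6% and 17.2%, and the TATA box TATAAA in 4.95%, against 7.15% and 13.6%. Each motif was searched on both strands, and a match is a run of letters, not a bound site.

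Library totals were 16784286 to 47890535 counts. Kat7 had 0.0899 ± 0.0718 CPM in null proliferating cells against 139 ± 5.59 in intact ones, and 0.00766 ± 0.0153 CPM in null differentiating cells against 103 ± 3.06 in intact ones (mean ± SD, n = 4 each). Some libraries stood apart from their groups. Intact differentiating library 1 was the highest of its group in 75 of 97 members and library 4 the lowest in 72, intact proliferating library 1 was the highest in 57 of 98, and null proliferating library 4 the highest in 56 of 90. Summed levels of 16 neuron markers were 2400 to 2840 CPM in null differentiating and 2090 to 6220 in intact differentiating libraries, with the 6220 in library 1. By the edgeR test described below, 2 of the 16 were higher and 8 lower in null differentiating cells. In null proliferating cells 1 was higher and 4 lower. Over all genes tested, 24.3% were higher and 22% lower in differentiating cells, and 19% and 19.7% in proliferating ones. Stmn2 had 0.587 ± 0.245 CPM in null and 284 ± 309 in intact differentiating cells, while Gad1 had 95.1 ± 16.6 and 37.1 ± 23.4. The sums do not show such opposite differences. Summed levels of 14 markers of the oligodendrocyte lineage were 1560 to 1860 CPM in null differentiating and 4440 to 9640 in intact differentiating libraries. The corresponding sums of 12 astrocyte markers were 5890 to 9290 and 2050 to 3220 CPM. In proliferating cells the sums were 1410 to 1660 CPM in null against 1300 to 1560 in intact libraries for neuron markers, 841 to 1010 against 1410 to 2350 for the oligodendrocyte lineage, and 2680 to 4000 against 1500 to 2310 for astrocytes. Summed levels of 14 mural and vascular markers were 43.8 to 62.9 CPM in null differentiating and 79.1 to 109 in intact differentiating libraries, and 86.9 to 173 against 123 to 154 in proliferating ones. Cspg4 is in this list and in that of the oligodendrocyte lineage. It had 29.2 ± 7.2 CPM in null and 131 ± 15.7 in intact proliferating cells. Acta2 went the other way, with 59.7 ± 41.8 and 3.15 ± 0.724 CPM. Of the 10 mural and vascular markers tested, 2 were higher and 2 lower in null proliferating cells, and the sum does not show their directions. The 8 microglia markers summed to at most 0.737 CPM in any library, with C1qa at 0 throughout. The progenitor markers Nes, Sox2, Vim, Hes5, Mki67 and Top2a were detected in every group. They summed to 5470 to 5560 CPM in null and 5520 to 6200 in intact proliferating libraries, and to 2330 to 3020 in null and 1150 to 2000 in intact differentiating ones. The ranges of the oligodendrocyte lineage and astrocyte sums did not overlap between genotypes in either state, nor did those of the mural and progenitor sums in differentiating cells, while the other ranges overlapped. The part of these marker levels in the results on channel genes was not tested.

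Per kilobase of gene model, the members' median level over all libraries was 1.15 CPM, against 9.21 for all genes tested, so most channel genes were expressed at low levels. A few members held much of the total. Cacng7, a gamma family gene, was first in every group, at 49.2 CPM per kilobase in null proliferating, 60.4 in intact proliferating, 98.2 in null differentiating and 103 in intact differentiating cells. In proliferating cells of both genotypes the fast delayed rectifier gene Kcnc1, the A-type genes Kcnd3 and Kcnd2, their partner Kcnip3, the Shaker-type Kcna2 and Kcnmb4, which encodes a beta subunit of the large-conductance calcium-activated channel, were also among the first 10. Null proliferating cells differed in order: Cacng8 ranked 3 at 38.8 CPM per kilobase, against 16.1 and rank 9 in intact proliferating cells. Kcne1l, a small modulator of voltage-gated potassium channels, ranked 2 in null differentiating cells at 85.3 CPM per kilobase, with 27.4 in intact differentiating cells. Summed over the 98 members, the level was 451 to 578 CPM per kilobase in null proliferating and 430 to 453 in intact proliferating libraries, and 562 to 601 in null differentiating and 479 to 775 in intact differentiating ones. The summed ranges overlapped in differentiating cells, although single genes differed many-fold in both directions.

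**Figure D1:**
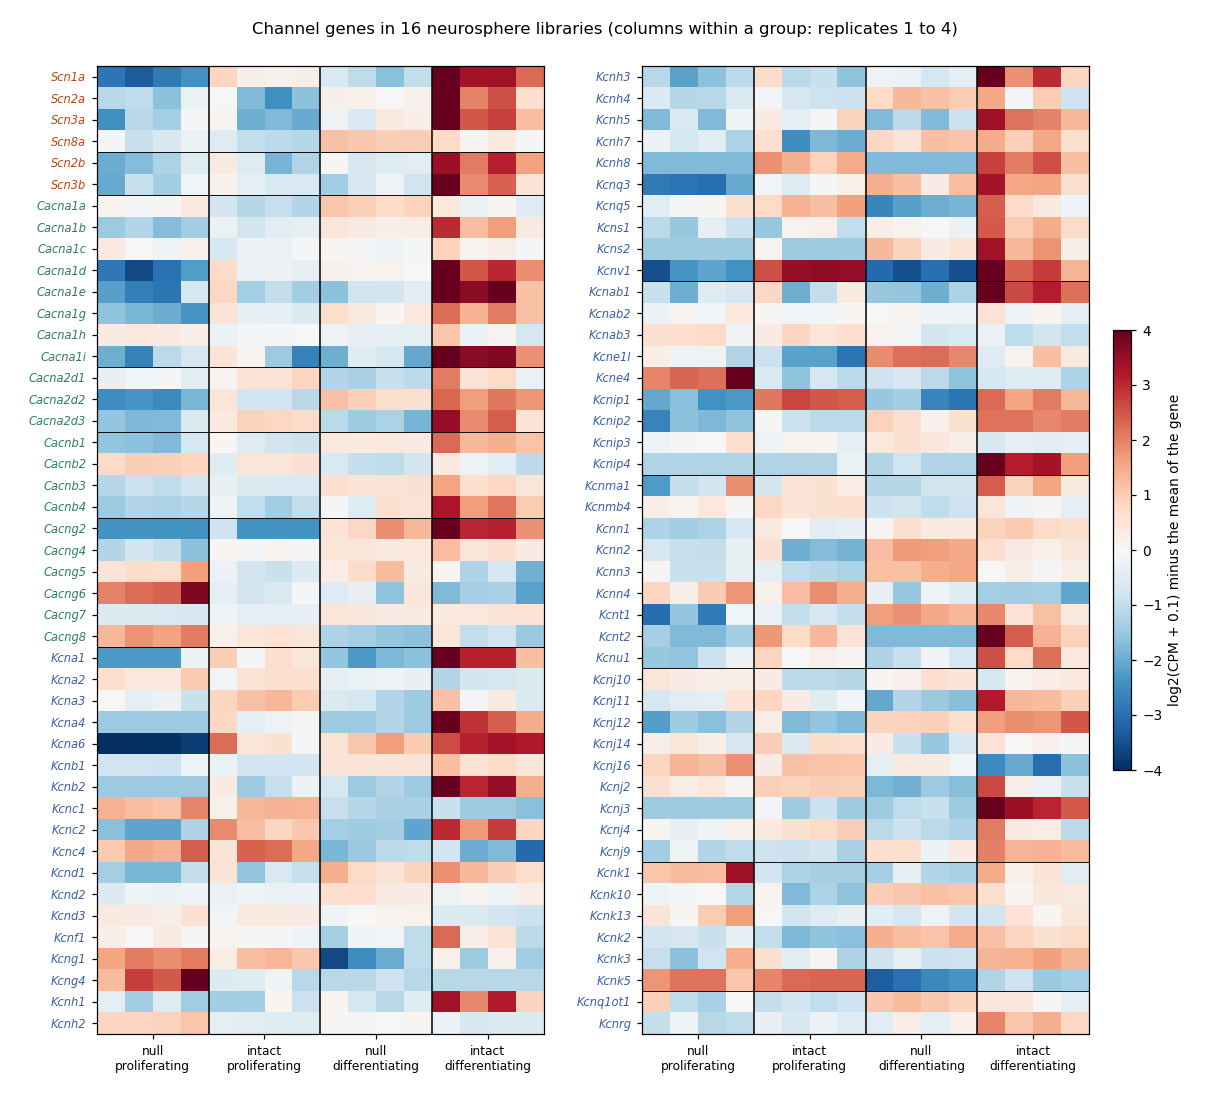
Levels of 90 of the 95 tested members in the 16 libraries as log2(CPM + 0.1) minus the mean of each gene, so that red is above and blue below that gene's mean. Rows are ordered by channel class with lines between classes, gene names are orange for sodium, green for calcium and blue for potassium channel genes, and columns within a group are replicates 1 to 4. A block of sodium, calcium and potassium genes is red in intact differentiating cells, most deeply in library 1, and pale or blue in null differentiating cells.

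Without KAT7 the channel genes changed in both directions, and in differentiating cells mostly downwards. Counts were tested with edgeR's quasi-likelihood test over 15177 genes, and a gene was called at a Benjamini-Hochberg adjusted p under 0.05. Of the 95 members with enough counts for the test, 15 were higher and 23 lower in null proliferating cells, set against intact proliferating ones. Over all genes tested, 19% were called higher and 19.7% lower in that comparison. In differentiating cells null cells had 16 members higher and 52 lower, against 24.3% and 22% of all genes tested. The members' median log2 fold change was -0.40 in proliferating and -1.32 in differentiating cells, against -0.01 and 0.04 over all genes tested. Cacna2d4, Kcna5 and Kcnk9 were the 3 members not tested. These are bulk RNA measurements, in which fewer cells of a type and less RNA per cell cannot be told apart.

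Leaving out libraries moved these counts. With both intact replicates numbered 1 left out, 21 members were higher and 28 lower in null proliferating cells, 15 of the 15 and 23 of the 23 among them, and 19 were higher and 50 lower in null differentiating cells, including 15 of the 16 and 49 of the 52. The members' medians were then -0.17 in proliferating and -0.98 in differentiating cells. Shares over all genes tested are not given for that fit, so its counts cannot be set against them. Of 38 calls in proliferating cells, 7 were lost without at least 1 single library, among them those of Cacnb1, Kcna1, Kcnq5, Kcnmb4 and Kcnj10. Of 68 calls in differentiating cells, 10 were, among them those of Cacng6, Cacng8, Kcna2, Kcnf1, Kcnn2, Kcnn4, Kcnj12, Kcnk1 and Kcnk2. Scaling by library totals in place of the scaling used here gave a share of higher calls among all called genes of 36.7% in place of 49.1% in proliferating cells, and of 39.4% in place of 52.5% in differentiating cells, with medians over all genes shifted by less than 0.1 on the log2 scale. The rule itself can favour a direction, since 9 members reached 10 counts only in libraries of 1 group (Kcna4, Kcnb2, Kcng4, Kcnh1, Kcns1, Kcne4, Kcnip4, Kcnj3 and Kcnk9). Among the other 89, 87 were tested, of which 13 were higher and 22 lower in null proliferating cells and 16 higher and 46 lower in null differentiating cells.

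**Figure D2:**
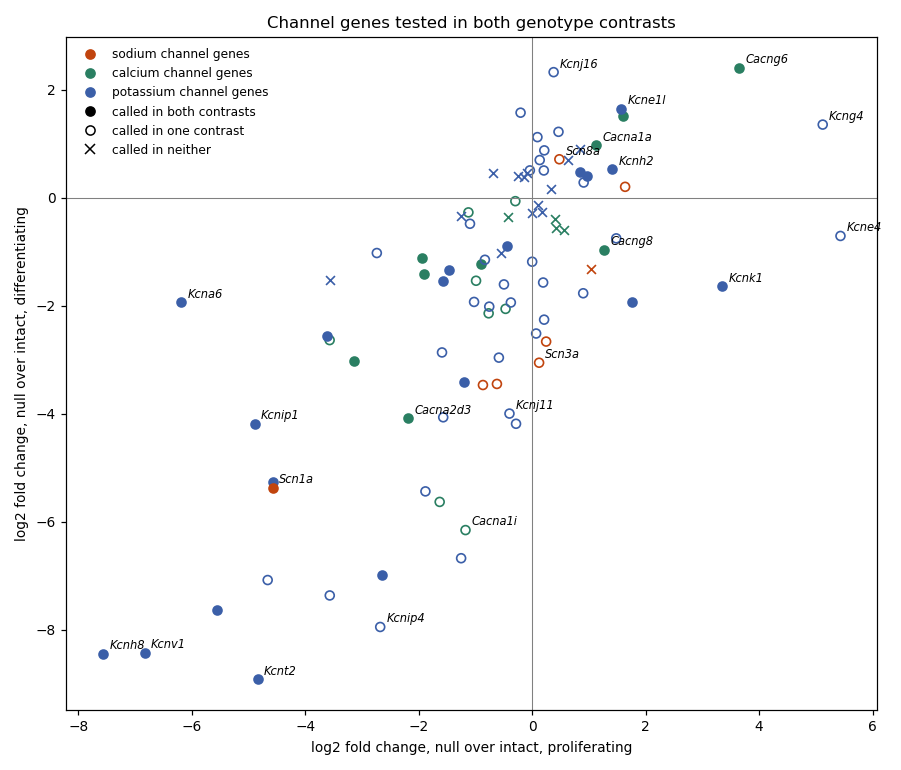
Log2 fold changes of the 95 tested members, null over intact, in proliferating cells (horizontal axis) and differentiating cells (vertical axis). Colours are channel families, filled circles are genes called in both comparisons, open circles in one and crosses in neither. Members called in both lie mainly at the lower left (19 lower in both), with 7 at the upper right and 3 at the lower right, Cacng8 and Kcnk1 among them; values of genes with 0 counts in a group, such as Kcnh8, depend on the prior count.

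Members fell into a few patterns across the 2 states. In null cells of both states, 19 were lower, 7 were higher (among them Cacna1a, Cacng5, Cacng6, Kcne1l, Kcnh2 and Kcnk2) and 3 were higher while proliferating and lower while differentiating (among them Cacng8 and Kcnk1). A further 30 were lower and 9 higher in differentiating cells and not called in proliferating ones, and 18 were called in neither. For all genes tested, the shares of these patterns were not computed, so the counts do not set channel genes apart. Whether the size of the genotype difference itself differed between the states was tested as an interaction, the null response to differentiation minus the intact response, which called 5 members higher and 20 lower, against 12.7% and 9.93% of all genes tested. Its 25 calls were less stable than the others: 12 of them were lost without at least 1 single library, and without null proliferating library 4 there were 8 higher and 12 lower.

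For each class count from here on, the shares over all genes tested were 19% higher and 19.7% lower in null proliferating cells. In null differentiating cells they were 24.3% and 22%. Sodium channel pores were lower in null differentiating cells for 3 of 5 members, and Scn8a was higher. Scn8a, which encodes the pore of mature axon initial segments, had the highest level per kilobase of the 5. It had 90.0, 84.2, 79.3 and 79.7 CPM in null differentiating libraries, against 69.0, 43.0, 52.5 and 38.8 in intact ones. Every null library was above every intact one, at a log2 fold change of 0.71 ± 0.19 (SE, edgeR adjusted p = 0.00666). In proliferating cells its difference of 0.48 ± 0.20 did not pass (adjusted p = 0.0650). Scn1a, a pore prominent in inhibitory neurons, had 0.558, 0.398, 0.213 and 0.406 CPM in null differentiating libraries and 39.6, 9.86, 10.1 and 4.67 in intact ones. In proliferating cells it had 0.0349, 0, 0.0416 and 0.0850 CPM in null libraries and 1.70, 1.08, 1.01 and 1.08 in intact ones. The groups did not overlap in either state, and the log2 fold changes were -5.37 ± 0.61 (adjusted p = 7.12e-06, -4.40 without intact differentiating library 1) and -4.56 ± 0.88 (adjusted p = 0.000735, -5.19 without null proliferating library 4).

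Scn2a and Scn3a, neighbours on chromosome 2 that are the main pores of immature neurons, differed between genotypes after differentiation. Scn3a had 4.08, 2.94, 5.96 and 5.36 CPM in null differentiating libraries and 85.8, 25.8, 30.6 and 10.8 in intact ones, a log2 fold change of -3.05 ± 0.64 (edgeR adjusted p = 0.00124, -2.28 without intact differentiating library 1). Scn2a had 6.45, 6.28, 5.49 and 6.12 CPM in null and 90.2, 21.9, 33.03 and 8.78 in intact differentiating libraries (log2 fold change -2.66 ± 0.61, adjusted p = 0.00220, -1.80 without library 1). Null libraries lay within a narrow range and every intact library above them. In proliferating cells neither passed (0.12 ± 0.69 and 0.25 ± 0.64 on the log2 scale). Their interactions were -3.18 ± 0.92 (adjusted p = 0.0227) and -2.91 ± 0.87 (adjusted p = 0.0263). Without null proliferating library 4 these were not called (adjusted p = 0.0670, at -2.55, and 0.0587), and that of Scn2a was also lost without intact proliferating library 2, 3 or 4 (adjusted p = 0.0548, 0.0534 and 0.0534). Without intact proliferating library 1 they were -4.04 and -3.73, and without intact differentiating library 1 they were -2.40 and -2.05.

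Among the sodium beta genes, Scn2b and Scn3b were lower in null differentiating cells, at 0.316 ± 0.0933 against 3.501 ± 1.996 CPM and 6.14 ± 2.04 against 67.2 ± 67.0 CPM in intact differentiating cells (SD, n = 4 each). Their log2 fold changes were -3.47 ± 0.57 (edgeR adjusted p = 0.000174) and -3.45 ± 0.61 (adjusted p = 0.000313), and Scn3b was at -2.49 without intact differentiating library 1. The interaction of Scn3b was -2.82 ± 0.83 (adjusted p = 0.0234), with -1.87 without that library and a lost call without null proliferating library 4 (adjusted p = 0.0587).

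**Figure D3:**
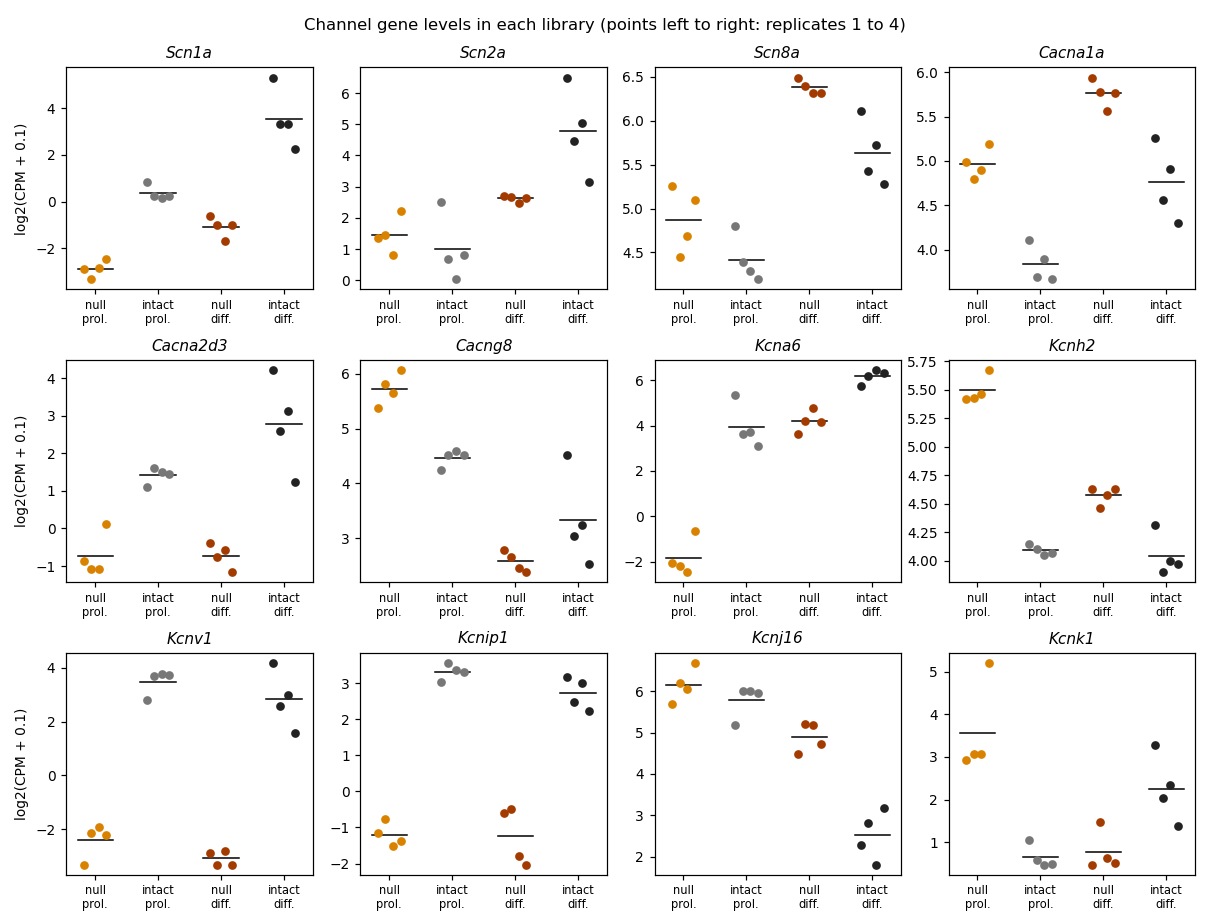
Levels of 12 members in each library on a log2(CPM + 0.1) scale, with points for replicates 1 to 4 from left to right, a line at the mean of each group and a vertical axis that differs between genes. Kcnv1 and Kcnip1 are low in null cells of both states, Kcna6 is low in null proliferating cells and higher once they differentiate, Kcnh2 and Cacna1a are higher in null cells of both states, and Cacng8 and Kcnk1 are higher in null proliferating and lower in null differentiating cells.

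Among the 8 calcium channel pores, Cacna1a was higher and Cacna1d and Cacna1g were lower in null cells of both states, and 3 more were lower in null differentiating cells. Cacna1a, the pore of the P/Q-type channel of presynaptic terminals, had 31.6, 27.6, 29.6 and 36.6 CPM in null proliferating libraries, against 17.2, 12.8, 14.8 and 12.6 in intact ones. It had 61.2, 54.8, 47.3 and 54.5 CPM in null differentiating libraries, against 38.2, 23.5, 29.9 and 19.7 in intact ones. The genotypes did not overlap in either state, and the log2 fold changes of 1.13 ± 0.18 (edgeR adjusted p = 0.000162) and 0.97 ± 0.17 (adjusted p = 0.000320) were alike in size, with an interaction of -0.16 ± 0.24 that did not pass. Cacna1d, an L-type pore, had 0.283 ± 0.148 CPM in null proliferating cells, against 2.74 ± 1.22 in intact proliferating cells, and 2.87 ± 0.128 in null and 23.1 ± 15.8 in intact differentiating cells (SD, n = 4 each). Its log2 fold changes were -3.15 ± 0.52 (adjusted p = 0.000236) and -3.01 ± 0.42 (adjusted p = 3.72e-05). Cacna1g, a low-voltage-activated T-type pore, was at -1.90 ± 0.31 (adjusted p = 0.000225) and -1.41 ± 0.28 (adjusted p = 0.000736).

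The other 2 T-type genes behaved differently. Cacna1h had the highest level per kilobase of the calcium pores, at 92.2 ± 4.01 CPM in null proliferating and 68.7 ± 4.99 in intact proliferating cells, and 57.8 ± 3.48 in null differentiating and 84.6 ± 49.7 in intact differentiating cells (SD, n = 4 each). Its differences of 0.42 ± 0.26 and -0.55 ± 0.26 on the log2 scale did not pass. Cacna1i had 0.0697, 0.367, 0.298 and 0.0580 CPM in null differentiating libraries and 41.0, 7.85, 8.31 and 2.22 in intact ones, a log2 fold change of -6.15 ± 1.01 (edgeR adjusted p = 0.000157, -4.87 without intact differentiating library 1). Cacna1e, the R-type pore, had 0.244 to 0.696 CPM in null and 2.37 to 61.0 in intact differentiating libraries (-5.63 ± 0.90, adjusted p = 0.000127, -4.70 without library 1). Cacna1b, the N-type pore, was lower there as well (-1.54 ± 0.38, adjusted p = 0.00381, -0.84 without library 1), and Cacna1c was not called in either state. The interaction of Cacna1i, -4.98 ± 1.64 (adjusted p = 0.0405), was lost without any 1 of 10 libraries, and was -4.28 without null proliferating library 4, -5.69 without intact proliferating library 1 and -3.69 without intact differentiating library 1.

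Alpha-2/delta subunits, which bring calcium channels to the membrane and include the targets of gabapentin-type drugs, were lower in null differentiating cells for all 3 tested members. Cacna2d3 had 0.662, 0.490, 0.575 and 0.348 CPM in null differentiating libraries and 18.5, 5.95, 8.65 and 2.25 in intact ones, a log2 fold change of -4.08 ± 0.54 (edgeR adjusted p = 2.41e-05, -3.43 without intact differentiating library 1). In proliferating cells it had 0.547 ± 0.299 against 2.61 ± 0.404 CPM in intact cells (-2.19 ± 0.53, adjusted p = 0.00433). Its interaction did not pass (-1.90 ± 0.73, adjusted p = 0.0732). Cacna2d1, the member with the highest level per kilobase, was lower in null differentiating cells (-2.14 ± 0.35, adjusted p = 0.000169, -1.53 without library 1) and did not pass in proliferating cells (-0.77 ± 0.34). Cacna2d2 was lower in both states (-1.94 ± 0.33, adjusted p = 0.000306, and -1.11 ± 0.28, adjusted p = 0.00506). The genes Cacna2d3 and Cacna1d lie 317.2 kilobases apart on chromosome 14 and were lower in both states alike.

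Of the 4 beta subunits, which bind the pore from the inside, Cacnb1 was lower in null cells of both states, at -0.90 ± 0.29 (edgeR adjusted p = 0.0237) and -1.22 ± 0.28 (adjusted p = 0.00205). The first call was lost without null proliferating library 1, 2 or 3 (adjusted p = 0.0647, 0.0620 and 0.0689) or intact proliferating library 1 (adjusted p = 0.0824). The span of Cacnb1 overlaps Rpl19, so part of its reads may belong to that gene. Cacnb4 was lower in null differentiating cells, with 4.39 ± 1.55 against 18.3 ± 12.7 CPM in intact ones (SD, n = 4 each; -2.06 ± 0.41, adjusted p = 0.000776). Cacnb3, the most abundant per kilobase, was not called in either state (-0.42 ± 0.18 and -0.35 ± 0.18).

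The 6 gamma genes differed among themselves, and so did some that are neighbours on a chromosome. Cacng7, Cacng8 and Cacng6 lie within chr7:3332027-3435667 (mm10), with gaps of 25.8 and 7.3 kilobases. Cacng8, which modulates AMPA receptors, had 41.2, 56.2, 50.1 and 66.9 CPM in null proliferating libraries, against 18.8, 22.9, 24.1 and 22.9 in intact ones, and the groups did not overlap (log2 fold change 1.27 ± 0.31, edgeR adjusted p = 0.00464). After differentiation it had 6.83, 6.25, 5.43 and 5.13 CPM in null and 22.8, 8.15, 9.31 and 5.69 in intact libraries, with overlap. That difference of -0.97 ± 0.32 (adjusted p = 0.0216) was -0.39 and not called without intact differentiating library 1 (adjusted p = 0.102), nor called without null differentiating library 3 or 4 (adjusted p = 0.0532 and 0.0573). The interaction of Cacng8 was -2.24 ± 0.44 (adjusted p = 0.00259). Cacng6, in skeletal muscle a subunit of calcium channels, had 1.64, 1.97, 2.16 and 5.72 CPM in null proliferating libraries and 0.162 to 0.315 in intact ones (3.65 ± 0.61, adjusted p = 0.000280, 3.06 without null proliferating library 4). Its call in differentiating cells rested on 33 counts in null and 5 in intact libraries and was lost without null differentiating library 4, where the log2 fold change of 2.40 became 1.80, or without intact differentiating library 1 or 4. Cacng7 went slightly the other way in proliferating cells, with 40.7 ± 1.20 CPM in null cells, against 50.03 ± 3.99 in intact cells (-0.30 ± 0.06, adjusted p = 0.00205).

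Another pair of gamma neighbours, 79.9 kilobases apart on chromosome 11, also diverged. Cacng4 had 15.5, 21.0, 17.97 and 11.2 CPM in null proliferating libraries and 37.2, 33.1, 38.7 and 33.2 in intact ones, a log2 fold change of -1.12 ± 0.19 (edgeR adjusted p = 0.000354). Cacng5 was higher in null cells of both states, at 9.12 ± 3.59 CPM in null proliferating cells, against 3.03 ± 0.657 in intact proliferating cells, and 7.66 ± 2.49 in null and 2.67 ± 1.59 in intact differentiating cells (SD, n = 4 each). Its log2 fold changes were 1.59 ± 0.38 (adjusted p = 0.00428) and 1.52 ± 0.38 (adjusted p = 0.00419). Cacng2, the gene mutated in stargazer mice, had 0 counts in null proliferating libraries and 4 in intact ones. In differentiating cells it had 0.662 to 1.83 CPM in null and 1.77 to 18.2 in intact libraries (-2.64 ± 0.71, adjusted p = 0.00881, -1.58 without intact differentiating library 1).

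**Figure D4:**
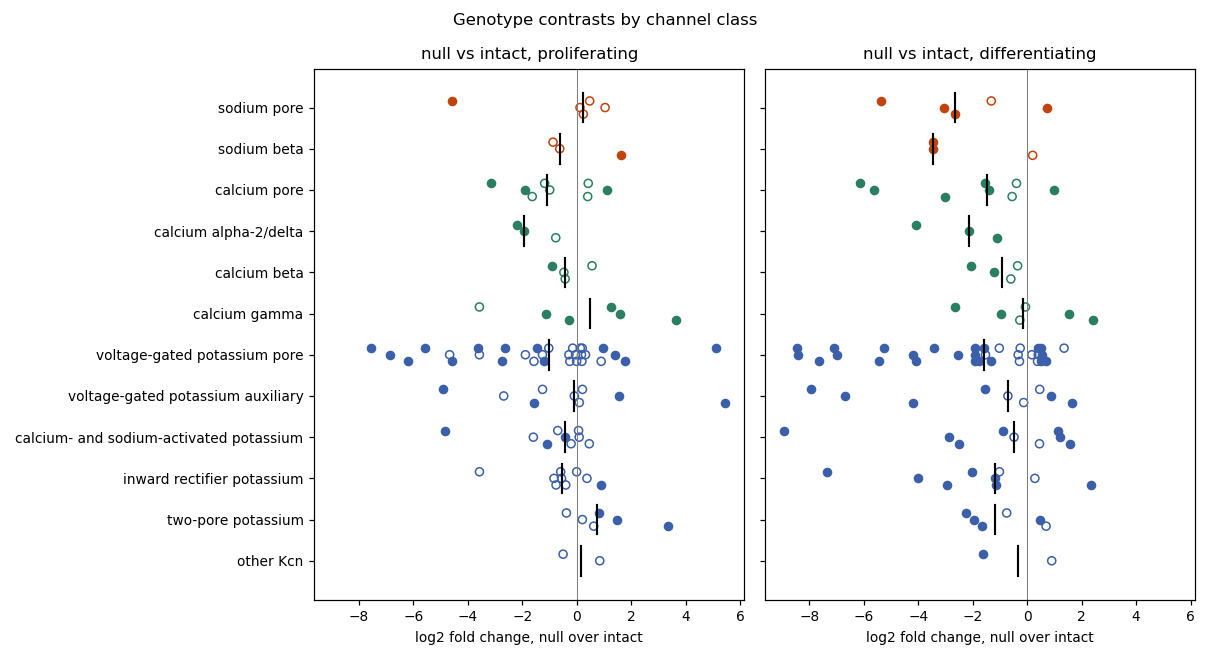
Log2 fold changes, null over intact, of the tested members by channel class, in proliferating cells on the left and differentiating cells on the right. Each circle is a gene, filled where called, and the vertical bar is the class median. Classes with a median below 0 in both states include the calcium pores and the alpha-2/delta subunits. The two-pore potassium genes have 3 filled circles above 0 on the left and 3 below on the right, and only Kcnk1 is among both.

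Voltage-gated potassium pores formed the class with most members, 31 tested. Of these, 4 were higher and 10 lower in null proliferating cells, against 19% and 19.7% of all genes tested. In null differentiating cells 5 were higher and 17 lower, against 24.3% and 22%. The 17 include Kcna4, Kcnb2, Kcnh1 and Kcns1, which reached 10 counts only in intact differentiating libraries. Kcng4, among the 4 higher, reached it only in null proliferating ones. The rule thus favoured the direction of these members, and the class counts and medians given here include them. The class median was -1.03 and -1.57 on the log2 scale, and -0.74 in proliferating cells with the 4 members at 0 counts in null cells set to their bound. With both intact replicates numbered 1 left out the medians were -0.41 and -0.91. Kcnv1, a silent subunit that changes the gating of other pores, had 0, 0.123, 0.166 and 0.113 CPM in null proliferating libraries, against 6.83, 12.7, 13.3 and 13.1 in intact ones (-6.83 ± 0.70, edgeR adjusted p = 3.59e-06). After differentiation it had 3 counts over all null libraries and 1087 over the intact ones, 633 of them in 1 library. The null level was 0.234% of the intact level (95% counting interval 0.0482 to 0.683%). Kcnv1 was thus nearly without counts in null cells of both states, although detected in every intact library. Kcnh8, an ether-a-go-go family pore, had 0 counts in all 8 null libraries. It had 1.11, 0.812, 0.552 and 0.855 CPM in intact proliferating and 2.20, 1.30, 1.94 and 0.689 in intact differentiating libraries, so it was at least 28.9-fold and at least 72.8-fold lower in null cells, with a floor of 3 counts for the whole group.

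Pores of the Kcna subfamily, which shape low-threshold repolarisation along axons, were lower in null cells of both states for 4 of 5 tested members. These were Kcna1, Kcna3, Kcna4 and Kcna6, of which Kcna4 reached 10 counts only in intact differentiating libraries. The call of Kcna1 in proliferating cells (-2.64 ± 1.02, adjusted p = 0.0483) was lost without any 1 of 13 libraries and rested on 11 null counts, with a value of -7.14 without null proliferating library 4. Kcna6, chosen after its values were seen, had the highest interaction value of the tested members. It had 0.140, 0.123, 0.0832 and 0.538 CPM in null proliferating libraries and 41.1, 12.1, 13.2 and 8.37 in intact ones. In differentiating cells it had 12.4, 18.4, 27.6 and 17.8 CPM in null libraries, against 52.9, 72.6, 86.8 and 79.6 in intact ones. Null cells were thus near 0 while proliferating, and after differentiation reached levels close to those of intact proliferating cells. The log2 fold changes between genotypes were -6.19 ± 0.63 (edgeR adjusted p = 3.72e-06) and -1.93 ± 0.42 (adjusted p = 0.00159), and the interaction was 4.25 ± 0.77 (adjusted p = 0.00141). Without null proliferating library 4 the first and last were -7.27 and 5.35, and without intact proliferating library 1 they were -5.45 and 3.52. Its neighbour Kcna1, 62.5 kilobases away on chromosome 6, had 6 counts in null and 750 in intact differentiating libraries, 499 of the 750 in 1 library. Kcna2, an abundant member, was the exception in the subfamily: it had 175 ± 10.8 CPM in null differentiating cells, against 124 ± 20.6 CPM in intact differentiating cells (SD, n = 4 each; 0.50 ± 0.17, adjusted p = 0.0264), a call lost without null differentiating library 3 or intact differentiating library 1 (adjusted p = 0.0624 and 0.0767).

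Other voltage-gated pores rose or fell by subfamily member rather than together. Kcnh2, the ERG channel known for its role in cardiac repolarisation, had 42.7, 42.9, 44.1 and 50.8 CPM in null proliferating libraries, against 17.6, 17.1, 16.5 and 16.7 in intact ones. After differentiation it had 24.6, 22.02, 23.8 and 24.7 CPM in null and 19.7, 14.8, 15.9 and 15.6 in intact libraries. Its log2 fold changes were 1.41 ± 0.09 (edgeR adjusted p = 8.52e-08) and 0.53 ± 0.09 (adjusted p = 0.000269), smaller after differentiation by an interaction of -0.89 ± 0.13 (adjusted p = 0.000322). The subfamily members Kcnh1, Kcnh3, Kcnh5 and Kcnh8 were by contrast lower in null differentiating cells. Kcnh1 among them reached 10 counts only in intact differentiating libraries. Kcnc2, a fast delayed rectifier, was lower in both states (-4.56 ± 0.78, adjusted p = 0.000279, -5.70 without null proliferating library 4, and -5.27 ± 0.68, adjusted p = 1.88e-05), while the far more abundant Kcnc1 was called in neither (0.32 ± 0.24 and 0.17 ± 0.24). Kcnd3 and Kcnd2, pores of the transient A-type current, were higher in null differentiating cells. Kcnd3 had 169, 187, 206 and 208 CPM in null and 130, 130, 110 and 105 in intact differentiating libraries (0.70 ± 0.12, adjusted p = 0.000227), and Kcnd2 178, 179, 142 and 142 against 97.0, 119, 101 and 134 (0.51 ± 0.11, adjusted p = 0.00210). Both were without overlap between genotypes, and Kcnd3 overlaps an antisense gene whose reads cannot be told apart here.

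Kcnq5, a subunit of the muscarine-sensitive M-current, was lower in null cells of both states, but its call in proliferating cells (-1.20 ± 0.44, edgeR adjusted p = 0.0436) was lost without any 1 of 9 libraries. Kcng4, another silent subunit, had 213 counts in null proliferating and 4 in intact proliferating libraries (5.12 ± 0.90, adjusted p = 0.000705), and 1 and 0 counts in null and intact differentiating ones. Of the 213 counts, 153 came from null proliferating library 4, and without that library the gene had too few counts for the test. Kcna6, Kcna2, Kcnc1, Kcnd2, Kcnh8 and Kcng4 were chosen for full values after those values were seen, as were Scn2a, Kcnn2 and Kcnn3.

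Among the 9 auxiliary genes of voltage-gated potassium channels, Kcnip1 and Kcnip2 were lower and Kcne1l was higher in null cells of both states. Kcnip1, a calcium-binding partner of A-type pores, had 0.349, 0.493, 0.250 and 0.283 CPM in null proliferating libraries and 8.04, 11.7, 10.3 and 9.86 in intact ones. After differentiation it had 0.558, 0.613, 0.192 and 0.145 CPM in null and 8.89, 5.47, 7.88 and 4.61 in intact libraries. All 8 intact libraries lay far above all 8 null libraries, and the log2 fold changes were -4.89 ± 0.40 (edgeR adjusted p = 6.28e-07) and -4.19 ± 0.38 (adjusted p = 9.86e-07). Kcnip3, the abundant partner in these cells, was by contrast higher in null differentiating cells, with 129 ± 13.3 against 70.2 ± 6.73 CPM in intact ones (0.88 ± 0.17, adjusted p = 0.000554). Kcne1l had 108, 135, 138 and 111 CPM in null and 20.4, 32.1, 67.6 and 38.2 in intact differentiating libraries (1.64 ± 0.40, adjusted p = 0.00344). In proliferating cells it had 34.4, 25.8, 25.2 and 12.6 CPM in null and 16.1, 6.55, 6.54 and 3.83 in intact libraries, with overlap (1.57 ± 0.42, adjusted p = 0.00849).

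Kcne4, an inhibitory modulator of Shaker-type pores, was detected mainly in null proliferating cells. It had 1.08, 1.42, 1.29 and 7.14 CPM there and 5 counts over the 4 intact proliferating libraries, a log2 fold change of 5.43 ± 0.84 (edgeR adjusted p = 0.000127). Without library 4 it was 4.29, and in differentiating cells it had 7 counts in null and 10 in intact libraries. The interaction was -6.14 ± 1.45 (adjusted p = 0.00643, -5.00 without that library). Kcnab1, a cytoplasmic beta subunit, had 4 counts in null and 417 in intact differentiating libraries (-6.67 ± 0.87, edgeR adjusted p = 1.82e-05). Kcnip4 had 1 and 357 counts, or 0.237% of the intact level (95% counting interval 0.00601 to 1.32%). Single libraries held 216 of the 417 and 228 of the 357 counts. Kcnip4 reached 10 counts only in intact differentiating libraries, so the rule favoured its direction. The interaction of Kcnab1 was -5.42 ± 1.35 (adjusted p = 0.00857, -6.07 without intact proliferating library 1).

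Of the 9 calcium- and sodium-activated potassium channel genes, Kcnt2 and Kcnmb4 were lower in null cells of both states. Kcnt2, a sodium-activated pore, had 2 counts in null and 55 in intact proliferating libraries, or 2.90% of the intact level (95% counting interval 0.351 to 10.5%). In differentiating cells it had 0 CPM in every null library and 5.43, 1.71, 0.776 and 0.539 CPM in intact ones, at least 108-fold lower in null cells. Kcnmb4 had 13.7, 15.2, 12.5 and 14.2 CPM in null and 35.4, 22.8, 25.9 and 19.1 in intact differentiating libraries, without overlap (-0.89 ± 0.15, edgeR adjusted p = 0.000238). Its smaller difference in proliferating cells, -0.44 ± 0.15 (adjusted p = 0.0325), was lost without null proliferating library 1, 2 or 4 or intact proliferating library 1 or 4. Antisense transcripts overlap the gene, and their reads cannot be told apart here. Kcnma1, the pore that Kcnmb4 joins, was lower in null differentiating cells as well (-2.51 ± 0.71, adjusted p = 0.00943).

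Among the small-conductance calcium-activated genes, Kcnn3 was higher in null differentiating cells. It had 53.8, 53.5, 64.7 and 68.6 CPM in null and 24.1, 27.8, 22.8 and 28.6 in intact differentiating libraries (1.22 ± 0.22, edgeR adjusted p = 0.000313). Kcnn2 had 21.8, 30.4, 29.2 and 26.6 CPM in null and 14.7, 11.7, 10.6 and 12.7 in intact differentiating libraries. The genotypes did not overlap for either gene, but the test of Kcnn2 was at its threshold (1.12 ± 0.44, adjusted p = 0.0490) and lost without any 1 of 11 libraries. Kcnn1 was lower in null proliferating cells (-1.10 ± 0.24, adjusted p = 0.00212) and did not pass in differentiating ones (-0.48 ± 0.22).

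Of the 9 inward rectifiers, 6 were lower and Kcnj16 was higher in null differentiating cells, and Kcnj10 alone was called in proliferating ones. The 6 include Kcnj3, which reached 10 counts only in intact differentiating libraries, so the rule favoured its direction. Kcnj10, the main inward rectifier of astrocytes, had 154, 138, 129 and 130 CPM in null proliferating libraries, against 139, 52.4, 52.4 and 50.4 in intact ones. Intact proliferating library 1 was within the null range, and the call (0.91 ± 0.30, edgeR adjusted p = 0.0275) was lost without null proliferating library 1 or intact proliferating library 2, 3 or 4. The summed astrocyte markers given above moved in the same direction in proliferating cells. In differentiating cells these sums differed too (5890 to 9290 CPM in null and 2050 to 3220 in intact libraries), but Kcnj10 was not called. Its log2 fold change there was 0.097 to 0.403 over the alternative settings and passed in none. The part of the astrocyte markers was not tested. Kcnj16, which forms a channel with Kcnj10 in glia, had 22.2, 36.8, 36.0 and 26.3 CPM in null and 4.78, 6.92, 3.42 and 9.02 in intact differentiating libraries, without overlap. Its log2 fold change was 2.32 ± 0.30 (adjusted p = 2.07e-05), against 0.38 ± 0.28 in proliferating cells, which did not pass, and the interaction was 1.95 ± 0.40 (adjusted p = 0.00327). Kcnj2, 38.2 kilobases from Kcnj16 on chromosome 11, was lower in null differentiating cells (-2.96 ± 0.60, adjusted p = 0.000958, -1.55 without intact differentiating library 1). Kcnj11, the pore of the ATP-sensitive channel, had 0.139, 0.337, 0.256 and 0.203 CPM in null and 8.78, 2.38, 2.29 and 1.80 in intact differentiating libraries (-3.9953 ± 0.57, adjusted p = 4.91e-05, -3.17 without library 1), with an interaction of -3.59 ± 0.77 (adjusted p = 0.00397, -2.77 without library 1). Kcnj3 and Kcnj9 encode subunits of channels opened by G proteins. Kcnj3 had 3 counts in null and 531 in intact differentiating libraries, and 358 of the 531 were in 1 library. Kcnj9 was at -1.18 ± 0.28 in differentiating cells (edgeR adjusted p = 0.00321).

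Among two-pore potassium genes, which carry background currents, Kcnk1 and Kcnk2 were called in both states, and Kcnk1 alone was called in opposite directions. In null proliferating cells 3 of 6 tested were higher and 0 lower, and in null differentiating cells 1 was higher and 3 lower. Kcnk1 had 7.46, 8.26, 8.24 and 36.9 CPM in null proliferating libraries, against 1.99, 1.41, 1.29 and 1.30 in intact ones. After differentiation it had 1.29, 2.69, 1.45 and 1.33 CPM in null and 9.67, 3.98, 4.93 and 2.52 in intact libraries. The genotypes were separate in proliferating cells, and in differentiating ones null library 2 was above intact library 4. Its log2 fold changes were 3.35 ± 0.57 (edgeR adjusted p = 0.000328, 2.42 without null proliferating library 4) and -1.64 ± 0.53 (adjusted p = 0.020). The second was not called without null differentiating library 1, 3 or 4 or intact differentiating library 1 (adjusted p = 0.0525, 0.0512, 0.0536 and 0.0846). The interaction of -4.99 ± 0.78 (adjusted p = 0.000518) was -4.05 without null proliferating library 4. Kcnk2, a mechanosensitive and lipid-sensitive member with the highest level per kilobase of the class, had 21.6, 23.1, 19.8 and 29.3 CPM in null and 18.5, 10.6, 12.02 and 11.6 in intact proliferating libraries (0.84 ± 0.18, adjusted p = 0.00169). Its difference in differentiating cells (0.47 ± 0.17, adjusted p = 0.0312) was lost without null differentiating library 1 or 4 or intact differentiating library 2, 3 or 4.

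Kcnk5 and Kcnk3, both acid-sensitive, were lower in null differentiating cells. Kcnk5 had 0.105, 0.153, 0.234 and 0.290 CPM in null and 0.772, 1.04, 0.621 and 0.689 in intact differentiating libraries (-1.94 ± 0.33, edgeR adjusted p = 0.000195). In proliferating cells it was at 7.20 ± 2.23 CPM in null cells, against 9.32 ± 1.12 CPM in intact cells and did not pass. On differentiation it fell by 5.13 on the log2 scale in null cells and fell by 3.57 in intact cells. Kcnk3 had 1.05, 1.44, 1.02 and 1.04 CPM in null and 5.15, 5.25, 6.25 and 5.15 in intact differentiating libraries (-2.26 ± 0.56, adjusted p = 0.00400). Its interaction of -2.47 ± 0.78 (adjusted p = 0.0340) was -1.24 and not called without null proliferating library 4 (adjusted p = 0.0798), and was lost without any 1 of 8 other libraries. Kcnrg was lower in null differentiating cells (-1.60 ± 0.32, adjusted p = 0.000779), in a region shared with Trim13 and Dleu2, and Kcnq1ot1 was called in neither genotype comparison.

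The response to differentiation itself was next compared within each genotype. In intact cells 58 members rose and 13 fell, against 36.7% and 35.3% of all genes tested. In null cells 35 rose and 26 fell, against 34.6% and 34.4%. The members' median log2 fold change was 1.31 in intact and 0.33 in null cells, and 0.02 in both for all genes tested. Among the 87 tested members with 10 counts in libraries of 2 or more groups, 52 rose and 13 fell in intact cells (median 1.24). In null cells 35 of these rose and 24 fell (median 0.30). In both genotypes 34 members rose and 12 fell, while 21 rose in intact cells and were not called in null cells. The 21 include Kcna4, Kcnb2, Kcnh1, Kcns1, Kcnip4 and Kcnj3. These reached 10 counts only in intact differentiating libraries, so the rule favoured their rise. A further 3 (among them Kcnj11 and Kcnk1) rose in intact and fell in null cells. Shares of these patterns over all genes tested were not computed. The fall of Kcnj11 in null cells (-1.74) was not called without null proliferating library 4 (-1.33, edgeR adjusted p = 0.0694). Without at least 1 single library, 6 of the 71 calls in intact cells and 4 of the 61 in null cells were lost. These responses share their libraries with the genotype comparisons, and a difference between the responses was called only for the 25 members of the interaction.

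**Figure D5:**
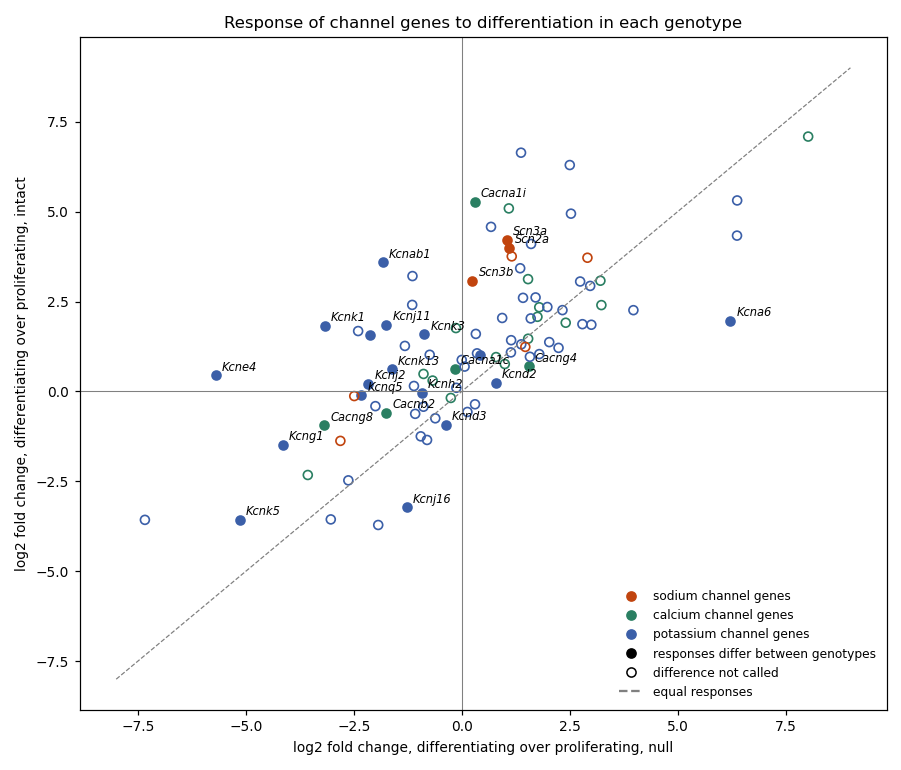
Log2 fold changes on differentiation of the 95 tested members, in null cells (horizontal axis) and intact cells (vertical axis). Filled circles, most of them named, are the 25 members whose responses differed between genotypes by the interaction test, open circles the others, and the dashed line marks equal responses. Of the filled circles, 20 lie above the line and Kcna6, Kcnj16, Cacng4, Kcnd2 and Kcnd3 lie below it.

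Genes that rose in both genotypes included the sodium pores Scn8a and Scn1a, the calcium pores Cacna1a, Cacna1b, Cacna1d and Cacna1g, and the beta subunits Cacnb1, Cacnb3 and Cacnb4. Kcnk2 rose by 1.98 ± 0.17 on the log2 scale in null and 2.35 ± 0.18 in intact cells (edgeR adjusted p = 1.21e-07 and 2.81e-08), and Cacng7 rose by 0.997 ± 0.06 and 0.76 ± 0.06 (adjusted p = 5.04e-09 and 7.87e-08). Kcnc1, abundant in proliferating cells, fell in both: it had 59.8 ± 7.74 CPM in null differentiating and 368 ± 98.7 in null proliferating cells, and 53.1 ± 13.0 in intact differentiating and 295 ± 94.2 in intact proliferating cells. Its responses of -2.63 ± 0.26 in null and -2.47 ± 0.26 in intact cells gave an interaction that did not pass (-0.15 ± 0.34). Kcna6 rose by 6.22 ± 0.63 in null cells (adjusted p = 4.75e-07, 7.31 without null proliferating library 4) and by 1.96 ± 0.42 in intact cells (adjusted p = 0.000702, 2.70 without intact proliferating library 1). Cacng2, with 0 counts in null proliferating and 174 in null differentiating libraries, was at least 42.3-fold higher on differentiation of null cells.

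Partners of these channels that the symbol rule leaves out were read from a list of 24 genes, of which 23 were tested. In null proliferating cells 5 were higher and 7 lower, and in null differentiating cells 2 were higher and 11 lower. Dpp6 and Dpp10, transmembrane partners of A-type pores, were lower in both states, and Dpp10 had 0 counts in null proliferating libraries and 395 in intact ones. Dpp6 had 0.983 ± 0.402 CPM in null proliferating cells, against 31.0 ± 12.4 CPM in intact proliferating cells, and 6.40 ± 0.952 in null and 63.4 ± 18.6 in intact differentiating cells (SD, n = 4 each). Fgf13, which binds sodium channel pores, had 1.97 ± 0.983 CPM in null differentiating cells, against 36.9 ± 19.4 in intact differentiating cells. Genes of the A-type channel thus did not share a direction in null differentiating cells, where Kcnd2, Kcnd3 and Kcnip3 were higher and Dpp6, Dpp10 and Kcnip1 lower. Of 32 tested genes of other cation channels, 8 were higher and 8 lower in null proliferating and 4 higher and 14 lower in null differentiating cells. Of 23 genes of ion pumps and chloride transport, the counts were 7 and 3 in proliferating and 7 and 9 in differentiating cells. For these 3 lists too, the shares over all genes tested were 19% higher and 19.7% lower in proliferating and 24.3% and 22% in differentiating cells, and several of the counts lie near them.

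Gene span was described because long genes are common among channels. The median span of the 95 tested members was 59.9 kilobases, against 22.9 over all genes tested with a position. Members lower in null differentiating cells had a median span of 63.0 kilobases and members higher there 62.8, while members called in neither direction had 42.5. Over all genes the order was the same, with 30.9 kilobases for lower, 26.4 for higher and 18.8 for uncalled genes. In proliferating cells the medians were 62.4 kilobases for lower, 32.1 for higher and 83.4 for uncalled members. Over all genes they were 27.6, 23.2 and 21.4 kilobases. The spans of 23 of the 98 members overlap another gene in the files. Because the use of strand in counting is not stated, part of their reads may belong to that gene. Among the 23 are Cacnb1, which overlaps Rpl19, and Cacna1d, which overlaps Chdh and Dcp1a.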

How the data were processed

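RNA-seq of polyadenylated RNA from 16 neurosphere libraries was used, 4 in each of 4 groups taken from the labels. The deposited counts per gene are raw read counts that the authors made with featureCounts on mm10 after bcl2fastq, per the submitters' processing notes. No source used here states the aligner, annotation, strandedness or tool versions. Every value column was mapped to a library, with 0 left over. IDs were matched to symbols for 25275 of 27179 genes.

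Counts were fitted with edgeR 4.0.16 in R 4.3.3 over all 16 libraries and 4 groups, with TMM scaling, filterByExpr at a minimum count of 10 (15177 genes) and the quasi-likelihood F test, adjusted by Benjamini-Hochberg over all genes tested at 0.05. The common biological coefficient of variation was 0.2. Standard errors are the log2 estimate divided by the root of F. Levels are TMM-scaled CPM, and CPM per kilobase is used between genes. Folds against a group without counts take 3 counts for the whole group as floor, and exact intervals are at 95%. Intervals and floors cover counting error only. The script was tested on simulated data with known changes. DESeq2 1.42.0, other scalings, filters, blocks and left-out libraries were alternatives.

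Isolates came from 4 foetuses per genotype, and libraries of the 2 states may share a foetus. The members and gene lists were chosen with earlier results of these data known. Genes given full values were, in each channel class, the highest per kilobase, the called members of lowest adjusted p (up to 2 in each genotype comparison, 1 in the interaction). Other members named outside that rule were chosen after their values were seen. A few members enter the counts and fits but are not reported singly here.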

Additional observations from a re-analysis of the deposited data

Results flagged for a closer look

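Values of single libraries were set apart when the gap to the nearest other library of the group, divided by the range of the group, was above Dixon's critical value at 95% for 4 libraries. Chance does this for about 1 in 20 groups. Over the members checked it happened in 66 of 380 groups (17.4%), of which 27 were intact proliferating library 1, 16 null proliferating library 4 and 9 intact differentiating library 1. The 37 among genes given full values and named here follow, each with the range of the other 3 libraries of its group. In intact proliferating library 1, Scn1a at 1.7 CPM (others 1.01 to 1.08), Scn2a at 5.57 CPM (others 0.921 to 1.67), Scn3a at 4.84 CPM (others 1.04 to 1.24) and Cacna1d at 4.55 CPM (others 1.98 to 2.26) stood apart. In the same library, Cacna1e at 1.84 CPM (others 0.315 to 0.46), Cacna2d2 at 8.96 CPM (others 2.88 to 3.73), Cacnb3 at 43.4 CPM (others 34.7 to 35.3) and Cacng2 at 0.194 CPM (others 0 to 0) stood apart. It also had Cacng7 at 56.0 CPM (others 47.7 to 48.4), Kcna6 at 41.1 CPM (others 8.37 to 13.2), Kcnc1 at 154 CPM (others 335 to 347) and Kcnd3 at 173 CPM (others 242 to 247). Others in intact proliferating library 1 were Kcnv1 at 6.83 CPM (others 12.7 to 13.4), Kcnn2 at 14.1 CPM (others 2.27 to 2.67), Kcnj10 at 139 CPM (others 50.4 to 52.4) and Kcnj16 at 36.2 CPM (others 62.2 to 64.1). Others in intact proliferating library 1 were Kcnk1 at 1.99 CPM (others 1.29 to 1.41) and Kcnk5 at 7.65 CPM (others 9.63 to 10). In intact differentiating library 1, Scn1a at 39.6 CPM (others 4.67 to 10.1), Cacna1i at 41.0 CPM (others 2.22 to 8.31), Cacng2 at 18.2 CPM (others 1.77 to 4.31) and Kcnj11 at 8.78 CPM (others 1.8 to 2.38) stood apart. In null proliferating library 4, Cacna2d3 at 0.992 CPM (others 0.37 to 0.453), Cacnb1 at 5.13 CPM (others 2.37 to 2.72) and Cacng5 at 14.45 CPM (others 6.63 to 7.77) stood apart. In the same library, Cacng6 at 5.72 CPM (others 1.64 to 2.16), Kcna6 at 0.538 CPM (others 0.0832 to 0.14), Kcne4 at 7.14 CPM (others 1.08 to 1.42) and Kcnk1 at 36.9 CPM (others 7.46 to 8.26) stood apart. It also had Kcnk3 at 5.47 CPM (others 0.555 to 1.08). In null differentiating library 4, Kcnc2 at 0 CPM (others 0.0613 to 0.0697) stood apart. In intact proliferating library 2, Kcnd2 at 99.6 CPM (others 93 to 94) stood apart. In null differentiating library 3, Kcng4 at 0.0213 CPM (others 0 to 0) stood apart. In null differentiating library 2, Kcnk1 at 2.7 CPM (others 1.29 to 1.45) and Kcnk3 at 1.44 CPM (others 1.02 to 1.05) stood apart. In intact differentiating library 3, Kcnk3 at 6.25 CPM (others 5.15 to 5.25) stood apart. In null proliferating library 2, Kcnrg at 0.493 CPM (others 0.208 to 0.244) stood apart. 

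Responses to differentiation differed between genotypes by the interaction test for 25 members, of which 23 are given. The values are the null response minus the intact response on the log2 scale, and the adjusted p of each was under 0.05 in edgeR's quasi-likelihood test. The null response was the higher for Cacng4 (0.85), Kcna6 (4.25), Kcnd2 (0.55), Kcnd3 (0.56) and Kcnj16 (1.95). The null response was the lower for Scn2a (-2.91), Scn3a (-3.18), Scn3b (-2.82), Cacna1c (-0.80), Cacna1i (-4.98), Cacnb2 (-1.16) and Cacng8 (-2.24). It was also lower for Kcng1 (-2.67), Kcnh2 (-0.89), Kcnq5 (-2.22), Kcnab1 (-5.42) and Kcne4 (-6.14). It was also lower for Kcnj11 (-3.59), Kcnj2 (-2.37), Kcnk1 (-4.99), Kcnk13 (-2.23), Kcnk3 (-2.47) and Kcnk5 (-1.56).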

How the results depend on the processing

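Of 267 called values, 4 of them of Kat7 and the others of members, 0 of 6755 recomputed ones changed direction and 347 lost the call. A test against a minimum change of 1.5-fold left 9 members higher in null proliferating and 5 in null differentiating cells, 8 falling in intact cells, and 2 higher and 7 lower in the interaction. DESeq2 called 34 lower in the interaction. Of the 267 calls in either direction, the 1.5-fold test kept 199 and lost 68. With DESeq2 262 of 264 were kept. Leaving out 1 library at a time gave 13 to 19 higher and 19 to 30 lower in null proliferating cells, 11 to 17 and 49 to 58 in null differentiating cells, and 3 to 8 and 12 to 30 in the interaction. Same-numbered libraries did not deviate together (correlations -0.231 to 0.126, and 1 of 8 numbers correlated best with itself), so the numbers are not taken as pairs. With the replicate block, 15 were higher and 22 lower in null proliferating cells, 15 and 51 in null differentiating cells, and 5 and 14 in the interaction; an isolate block gave 4 and 17 in the interaction. Shares over all genes tested are not given for the alternatives in this section. Counts limit members at few reads, such as Cacng2, Kcng4 and Kcne4 in some groups. There a difference was not detectable at this depth or rests on single reads.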
